A study of Homo sapiens with 27 samples.

Results

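The 8 genes RRM2, DCTPP1, SMARCD2, USP22, HMGA2, PPP2R1B, WDR1 and EPDR1 were examined across all libraries of a study that silenced the 3 VPS37 paralogs in DLD1 cells, a human colorectal carcinoma line. They are 8 of 10470 genes in the deposited table. They were chosen by their measured values: each differed between the 4 groups of cells given a small interfering RNA (siRNA) against VPS37C and the groups without it, so that difference is described below with no test. All 8 passed the filter used for testing (10 TPM or more as the mean of all libraries), as did 6458 genes in all. TPM, transcripts in each 1000000 of a library, is the unit of all levels, and levels are compared within a gene only.

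RNA was collected 72 h after transfection. The 27 libraries form 9 groups of 3 replicates. NT cells were left without transfection. siCTRL cells received control siRNAs. siVPS37A, siVPS37B and siVPS37C cells received 1 siRNA each, and siVPS37AB, siVPS37AC, siVPS37BC and siVPS37ABC cells received the combinations of these siRNAs that their names give. Every group with loss of VPS37C was made with the same single siRNA sequence, so loss of VPS37C and any other action of that siRNA cannot be told apart. Whether the total amount of siRNA was equal between groups is not given in the sources used here, and its part in the differences was not tested. The labels call the replicates biological and say nothing of separate cultures, so p-values measure the spread between these libraries. All are bulk RNA, in which fewer cells of a kind and less RNA per cell cannot be told apart.

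VPS37A, VPS37B and VPS37C are alternative subunits of ESCRT-I, a complex on endosomes that sorts ubiquitinated membrane proteins towards lysosomes. The genes described here have other roles. RRM2 and DCTPP1 act on the deoxynucleotide pool used for DNA synthesis. SMARCD2, USP22 and HMGA2 encode chromatin proteins, PPP2R1B a phosphatase scaffold, WDR1 a factor of actin filament disassembly and EPDR1 a lysosomal lipid-binding protein. An siRNA cuts the transcript to which its guide strand pairs fully, and, as background, bases 2 to 8 of a guide can also lower transcripts to which they alone pair, most often in the 3′ UTR.

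The targeted gene went with the labels. VPS37C had 3.98, 3.83 and 3.52 TPM in siVPS37C against 17.5, 15.7 and 19.2 TPM in siCTRL, and its group means lay between 21.6 and 28.7% of the siCTRL mean in the 4 groups given its siRNA. VPS37A lay at 5.54 to 9.11% and VPS37B at 3.35 to 7.42% of siCTRL where they were targeted. Of 9 epithelial markers, the 8 in the table summed to 7808 to 12596 TPM per library, and 1 of these was under 10 TPM in every library. Of 5 fibroblast and 4 leukocyte markers, 1 and 2 were in the table, each under 10 TPM in every library. Of 3 endothelial markers, 0 were in the table. Libraries of 1 group correlated at r of 0.963 to 0.991 over the tested genes.

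The hexamer GGCGAT is shown first, since it leads the sequence comparison given further on. For each gene the 22 bases that end 2 bases after the hexamer are printed from GENCODE v29 transcripts on GRCh38, with the hexamer in capitals. The authors' notes name hg19, a different build, and these positions are used only to place the sites. RRM2, DCTPP1 and USP22 hold it in the 3′ UTR of all their coding transcripts (USP22 also in the 5′ UTR of the longest), SMARCD2 in the coding sequence of all of its transcripts, and PPP2R1B only in the 3′ UTR of 1 of 5 transcripts, the longest. VPS37C itself holds it at 2 places of its coding sequence.
RRM2, 3′ UTR, chr2:10129787-10129808, plus strand: gtttgtactcacaaGGCGATaa
DCTPP1, 3′ UTR, chr16:30424037-30424058, minus strand: gtaaaatggttttgGGCGATaa
USP22, 3′ UTR, chr17:21000838-21000859, minus strand: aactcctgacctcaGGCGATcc
USP22, 5′ UTR, chr17:21042988-21043009, minus strand: tgcagcctcccctcGGCGATcg
SMARCD2, coding, chr17:63835503-63835524, minus strand: ccagcaaggcggaaGGCGATag
PPP2R1B, 3′ UTR, chr11:111738366-111738387, minus strand: ggctctgtccctgtGGCGATgg
VPS37C, coding, exon 2, chr11:61138763-61138784, minus strand: cagaatgactcggaGGCGATtg
VPS37C, coding, exon 5, chr11:61132379-61132400, minus strand: cccaggagctggccGGCGATgc
EPDR1, HMGA2 and WDR1 hold the hexamer in none of their coding transcripts.

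RRM2, the small subunit of ribonucleotide reductase that makes deoxyribonucleotides in S phase, was the most lowered of the 8 genes. Its levels were 104, 99.3 and 153 TPM in siVPS37C and 284, 244 and 373 TPM in siCTRL. They were 97.3, 94.9 and 106 TPM in siVPS37AC against 198, 207 and 230.1 TPM in siVPS37A. Adding the VPS37C siRNA thus went with a lower level in both backgrounds, with no overlap. In siVPS37BC the values were 119, 122 and 132 TPM against 247, 243 and 310.4 TPM in siVPS37B. In siVPS37ABC they were 75.5, 82.2 and 123.2 TPM against 200.4, 191 and 283 TPM in siVPS37AB. NT cells had 268, 216 and 216 TPM. Every one of the 12 libraries with the VPS37C siRNA was below every one of the 15 without it. On the log2(TPM + 1) scale, used for all differences below, the difference from the 12 other transfected libraries was -1.19 ± 0.09 (SE), a 2.29-fold lower level, and the 12 differences between libraries of the same replicate number ranged from -1.44 to -0.99.

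DCTPP1, a pyrophosphatase that removes dCTP and modified deoxycytidine triphosphates, was lower in the same libraries. It ranged from 92.1 to 174 TPM (median 144) in the 12 libraries with the siRNA and from 218 to 345 TPM (median 262) in the 12 other transfected libraries. NT cells had 248, 250.3 and 249.8 TPM. The ranges do not overlap, and the log2 difference was -0.96 ± 0.09. The pairs ranged from -1.23 to -0.47, the smallest of them between siVPS37ABC and siVPS37AB of replicate 1.

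SMARCD2, an accessory subunit of the SWI/SNF chromatin remodellers, ranged from 55.7 to 84.8 TPM (median 64.7) with the siRNA and from 89.99 to 146 TPM (median 114) in the other transfected libraries. The closest values, 84.8 TPM in siVPS37ABC and 89.99 TPM in siVPS37AB, lie near each other but do not overlap. NT cells had 135, 129 and 106 TPM, and the log2 difference from the other transfected groups was -0.74 ± 0.08. The matched difference was -0.94 from siCTRL and -0.53 from siVPS37AB.

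USP22, the ubiquitin protease of the SAGA coactivator complex that acts on histone H2B, ranged from 34.2 to 52.7 TPM (median 45.3) with the siRNA and from 65.5 to 87.2 TPM (median 75.0) in the other transfected libraries. NT cells were highest in 1 library, with 103, 80.6 and 82.7 TPM. There is no overlap, and the log2 difference was -0.76 ± 0.08. The group means with the siRNA, 43.3 to 46.0 TPM, lay within their own SDs of each other (2.61 to 9.25 TPM, n = 3 each).

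EPDR1 ranged from 54.8 to 93.4 TPM (median 68.6) with the siRNA and from 98.4 to 153 TPM (median 128) in the other transfected libraries. NT cells stood just above the first range, with 98.5, 93.7 and 102 TPM, so the highest library with the siRNA was separated from the lowest NT library by less than 1 TPM. The log2 difference was -0.84 ± 0.09 from the transfected groups and -0.49 from NT. EPDR1 is the lowered gene without the hexamer.

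HMGA2, an architectural chromatin protein of embryonic and tumour cells and a known target of let-7 microRNAs, was higher with the siRNA. It had 107, 78.5 and 91.1 TPM in siVPS37C against 51.7, 38.8 and 46.8 TPM in siCTRL, and 25.7, 18.5 and 14.4 TPM in NT. It had 75.7, 77.1 and 83.3 TPM in siVPS37BC against 32.5, 25.2 and 28.3 TPM in siVPS37B. Both comparisons are free of overlap, and the second matched difference was the largest of the 4, at 1.43. In siVPS37AC the values were 115, 92.8 and 129 TPM against 78.2, 58.1 and 54.7 TPM in siVPS37A. In siVPS37ABC they were 83.4, 78.6 and 92.6 TPM against 49.3, 41.5 and 38.2 TPM in siVPS37AB. Over all 8 transfected groups the ranges overlapped through 1 siVPS37A library of 78.2 TPM, and 10 of 12 libraries with the siRNA stood above all 12 others. The log2 difference was 1.05 ± 0.09 from the transfected groups and 2.19 from NT.

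PPP2R1B, the beta isoform of the scaffold subunit of protein phosphatase 2A, ranged from 76.0 to 149 TPM (median 104) with the siRNA and from 38.1 to 84.9 TPM (median 59.0) in the other transfected libraries. The overlap came from siVPS37AB, which reached 84.9 TPM, and from 2 siVPS37C libraries at 76.1 and 76.0 TPM. NT cells had 58.5, 67.0 and 60.3 TPM, below all 12. The log2 difference was 0.78 ± 0.09, and the pairs ranged from 0.52 to 1.10.

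WDR1, which works with cofilin to take apart actin filaments, ranged from 149 to 326 TPM (median 216) with the siRNA and from 99.0 to 199.9 TPM (median 142) in the other transfected libraries. NT cells had 204, 197 and 230.4 TPM, in the middle of the first range. The log2 difference was 0.59 ± 0.07 from the transfected groups but 0.05 from NT. In the 12 matched pairs it ranged from 0.20 to 0.95, and siVPS37BC differed least from its matched group (0.32).

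**Figure D1:**
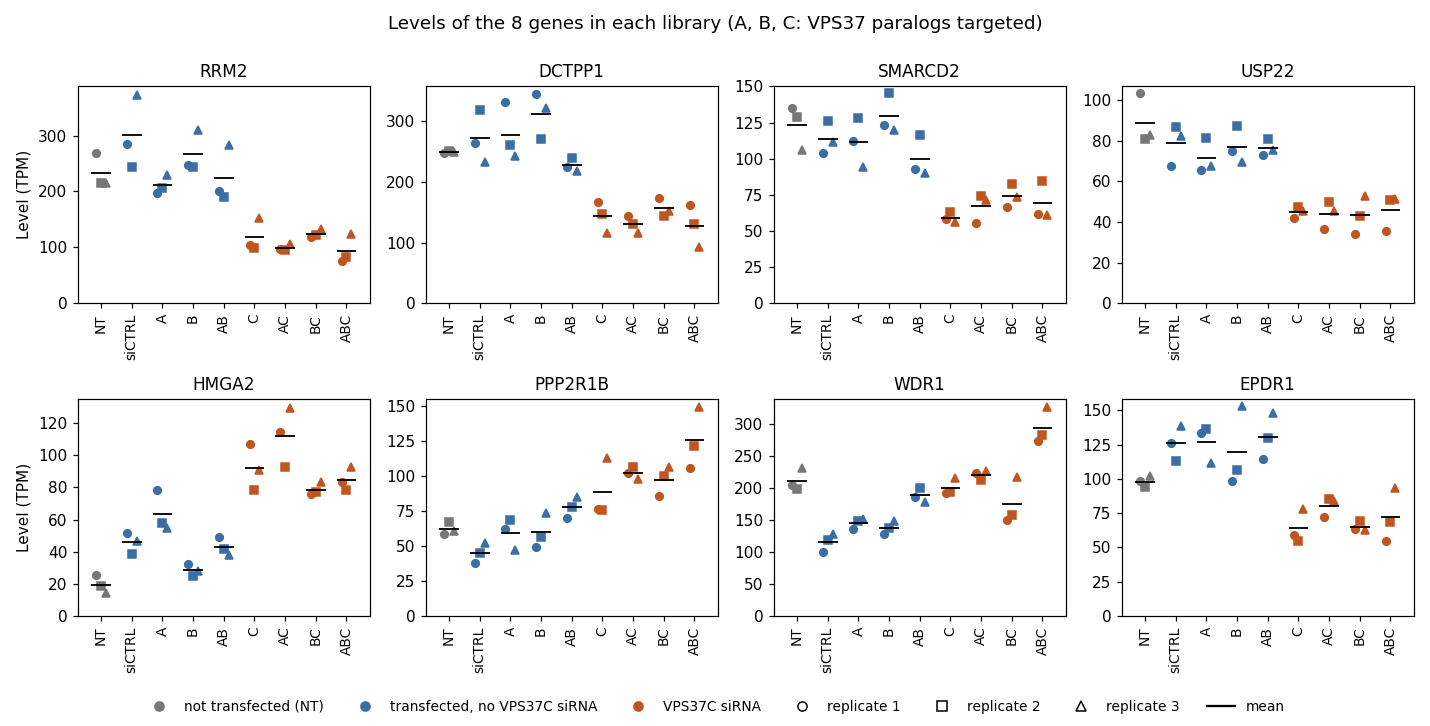
TPM (vertical axis, from 0) of each gene in every library by group (horizontal axis), with replicates as symbols and group means as lines. RRM2, DCTPP1, SMARCD2, USP22 and EPDR1 are lower in all 12 libraries with the VPS37C siRNA than in all 15 others, and HMGA2, PPP2R1B and WDR1 overlap with some of the others.

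The differences held their sign in all 12 same-numbered pairs for each of the 8 genes, which their choice largely fixes. They held it within each of the 7 numbers that end the library descriptions, which their choice largely fixes as well. In each number, libraries with and without the VPS37C siRNA stood side by side. There RRM2 ranged from -1.20 to -0.94, DCTPP1 from -1.49 to -0.48, SMARCD2 from -1.11 to -0.32, USP22 from -1.02 to -0.43 and EPDR1 from -1.12 to -0.43. The raised genes ranged from 0.85 to 1.30 for HMGA2, from 0.29 to 1.52 for PPP2R1B and from 0.08 to 1.32 for WDR1. Each number holds only some of the groups, so the mix of VPS37A and VPS37B siRNAs differs within it.

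**Figure D2:**
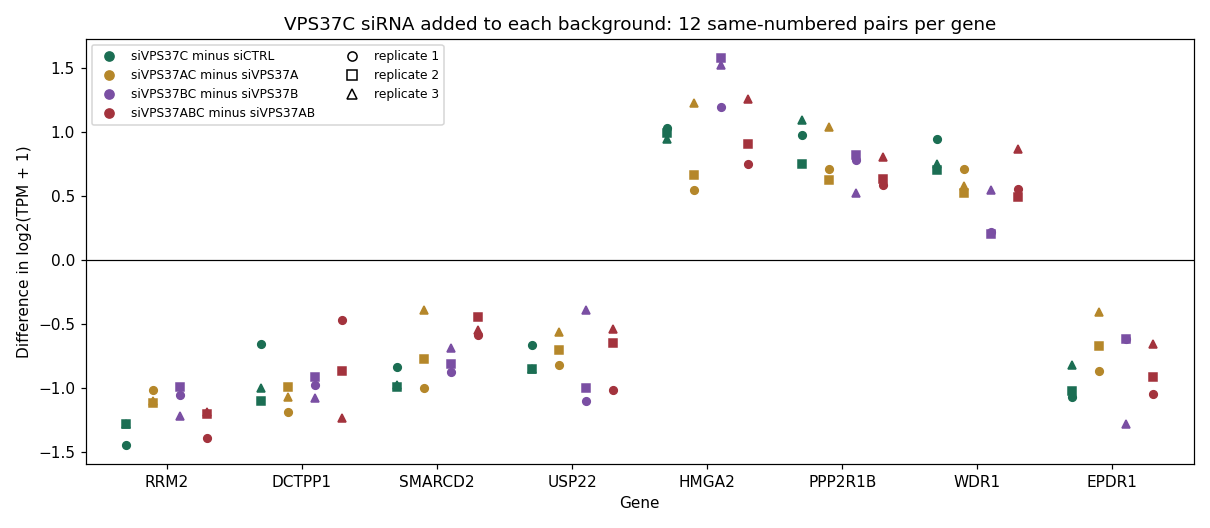
Difference in log2(TPM + 1) (vertical axis) between libraries of the same replicate number with and without the VPS37C siRNA, for 4 matched backgrounds (colours) and 3 replicates (symbols) of each gene. All 12 points of a gene lie on 1 side of 0, from -1.44 for RRM2 to 1.58 for HMGA2.

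Among all tested genes, 5.56% were called lower and 4.99% higher with the VPS37C siRNA by limma at a Benjamini-Hochberg adjusted p under 0.05 (359 and 322 genes). The 8 genes were chosen by this contrast, and nothing is read from their place in it. A stricter description was a gene whose 12 libraries with the siRNA all lay below, or all above, the 15 others. This held for 14 genes below (0.217% of those tested) and 0 above (0%). Against the 12 other transfected libraries alone it held for 21 genes below (0.325%) and 1 above (0.0155%). The 14 are VPS37C, the 5 lowered genes described here, and AAGAB, ARL6IP6, CLCC1, FRMD8, NR2F6, SELENOW, UBE2Z and ZDHHC9. Of the last 8, chosen after their values were seen, ZDHHC9, a palmitoyltransferase (-1.03 ± 0.08), and AAGAB, a chaperone of clathrin adaptor assembly (-0.94 ± 0.09), differed most.

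The hexamer came from a ranking of sequences. Every heptamer found in the 3′ UTR of at least 50 tested genes was ranked (15678 heptamers, 6298 genes with a 3′ UTR of at least 50 bases). The 8 genes and VPS37C were left out. From the log2 difference with the VPS37C siRNA, the trend with length and with the share of G and C bases was first removed. The mean of what remained was compared between genes with and without the heptamer, and all heptamer values given here are on this scale. GGCGATT had the lowest value, at -0.14 over 76 genes, and AGGCGAT the next, at -0.11 over 103 genes. GGCGAT is the run they share. GGCGATT was picked by the mean of the 4 matched differences, so a low place in each of them is largely fixed. It ranked lowest in each. Its values were -0.17 for siVPS37C minus siCTRL and -0.13 for siVPS37AC minus siVPS37A. They were -0.12 for siVPS37BC minus siVPS37B and -0.14 for siVPS37ABC minus siVPS37AB. Its value was 0.01 for the VPS37A siRNA, -0.01 for the VPS37B siRNA and -0.03 for siCTRL minus NT, at ranks 12336, 4513 and 1292 from the lowest. In 3′ UTRs, GCGATTA (-0.089, rank 3 from the lowest) and GCGATTT (-0.086, rank 5) do not contain the hexamer, while TGGCGAT (-0.088, rank 4) does. In whole transcripts the 4 lowest heptamers all contain the hexamer, and GCGATTT at rank 5 does not.

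Genes outside the set that hold the hexamer in the 3′ UTR (280 tested genes) were called lower with the VPS37C siRNA in 14.6% of cases and higher in 3.21%. Genes with it only in the 5′ UTR or coding sequence (985) were called lower in 8.73% and higher in 3.65%. Genes without it (5131) were called lower in 4.39% and higher in 5.32%. The hexamer was picked from the VPS37C differences of these same genes, so lower carriers in the 3′ UTR restate its choice and these shares describe their size only. Unlike the heptamer values, the shares were not corrected for length or base content. Most carriers were not called. Of the 8 other genes with fully separated libraries, 3 hold it in the 3′ UTR (AAGAB, UBE2Z and ZDHHC9), 4 elsewhere in the transcript and 1 (FRMD8) not at all. These 8, like all genes outside the set named below as holding the hexamer, were not left out of the ranking, so this is no separate observation. With the VPS37A siRNA, 6.43% of the genes with the hexamer in the 3′ UTR were called lower and 24.6% higher, against 8.44% and 20.3% of genes without it. With the VPS37B siRNA the shares were 7.14% and 8.57%, against 7.60% and 8.75%.

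**Figure D3:**
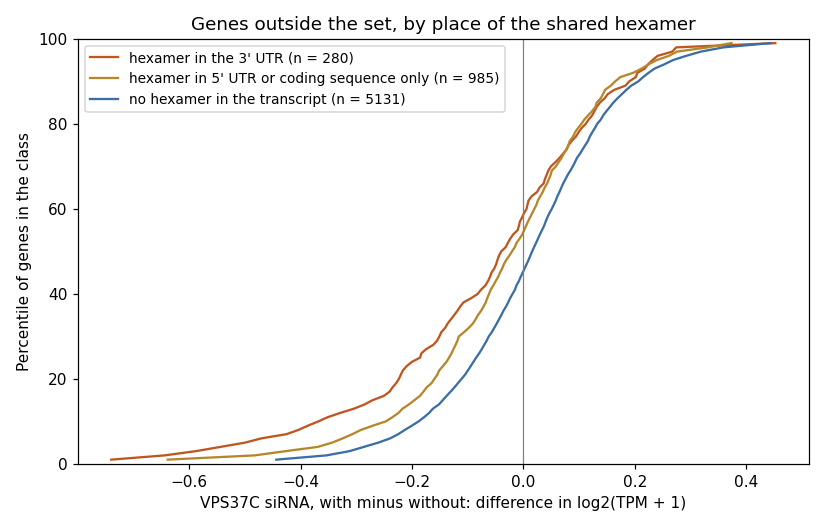
Percentile of genes (vertical axis) against the difference in log2(TPM + 1) with minus without the VPS37C siRNA (horizontal axis), for genes outside the set by place of the hexamer. The 10th percentile lies at -0.37 for the 280 genes with it in the 3′ UTR, -0.25 for the 985 with it elsewhere and -0.19 for the 5131 without it.

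Read against length, the hexamer in the 3′ UTR is uncommon. It was found on the sense strand of 5.37% of all 3′ UTRs and 20.9% of all transcripts, 1 transcript a gene. Among genes with a 3′ UTR of 0.8 to 1.25 times the length, 5.88% held it for RRM2 (2032 bases), 1.68% for DCTPP1 (614 bases), 8.78% for USP22 (3438 bases) and 8.85% for PPP2R1B (3715 bases). For the transcript of SMARCD2 (2716 bases) the share was 18.6%. HMGA2 has the longest 3′ UTR of the 8 (7421 bases), a length at which 15.4% hold the hexamer, and does not. PPP2R1B holds it in its longest transcript and was higher. The sequence of the VPS37C siRNA is not given in the sources used here, so whether the hexamer belongs to it was not tested, and a match is a description of letters.

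The siRNAs against VPS37A and VPS37B offer comparisons that the choice of genes did not use, since each was given equally with and without the VPS37C siRNA. The requirement of a steady VPS37C difference can still favour genes that vary little otherwise. Over all 4 backgrounds, the VPS37A siRNA changed 4 of the 8 genes, where 29.1% of all tested genes were called. RRM2 fell by 0.35 ± 0.09 (limma adjusted p = 0.00635), on top of its lower level with the VPS37C siRNA. HMGA2 rose by 0.35 ± 0.09 (adjusted p = 0.00419), PPP2R1B by 0.34 ± 0.09 (adjusted p = 0.00461) and WDR1 by 0.42 ± 0.07 (adjusted p = 2.27e-05). All 4 moved in the direction of their VPS37C difference. In a model that also holds the library number (the number with which a library description ends), RRM2 had -0.21 (adjusted p = 0.0790), while DCTPP1 fell by 0.32 (adjusted p = 0.00962) and EPDR1, a lowered gene, rose by 0.34 (adjusted p = 0.00280). Without the library number DCTPP1 had -0.22 ± 0.09 (adjusted p = 0.0577, and 0.0130 with the replicate block), EPDR1 0.15 ± 0.09, SMARCD2 -0.09 ± 0.08 and USP22 -0.02 ± 0.08.

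The VPS37B siRNA changed only the 3 raised genes among the 8, and 16.2% of all tested genes. HMGA2 fell by 0.45 ± 0.09 (adjusted p = 0.00113), against the direction of its VPS37C difference. This is seen in siVPS37B, where it had 28.6 ± 3.67 TPM (SD, n = 3) against 45.8 ± 6.48 TPM in siCTRL. PPP2R1B rose by 0.31 ± 0.09 (adjusted p = 0.0162) and WDR1 by 0.21 ± 0.07 (adjusted p = 0.0272). The call for WDR1 was lost without replicate 1 of siCTRL, replicate 1 of siVPS37A, replicate 2 of siVPS37AB or replicate 3 of siVPS37BC, with adjusted p up to 0.0548. The 5 lowered genes had -0.05 to 0.09 with SEs of 0.08 to 0.09, and none was called.

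Cells depleted of VPS37A and VPS37B together and not given the VPS37C siRNA show how the genes stand without it. Compared with siCTRL, 2 of the 8 were called, where 14.8% of all tested genes were. PPP2R1B rose by 0.78 ± 0.17 (adjusted p = 0.00304), from 38.1, 44.7 and 52.2 TPM to 70.3, 77.8 and 84.9 TPM. WDR1 rose by 0.71 ± 0.13 (adjusted p = 0.000473), from 99.0, 118 and 127 TPM to 186, 199.9 and 178 TPM. Neither range overlaps its control. Against the same siCTRL libraries, siVPS37C differed by 0.94 for PPP2R1B and 0.80 for WDR1. RRM2 had -0.42 ± 0.19 (adjusted p = 0.145, and 0.0240 with the replicate block), and SMARCD2 (-0.20 ± 0.16), USP22 (-0.04 ± 0.17), HMGA2 (-0.09 ± 0.18), DCTPP1 (-0.25 ± 0.17) and EPDR1 (0.05 ± 0.17) were not called. With the library number term, DCTPP1 had -0.55 (adjusted p = 0.0389) and EPDR1 0.52 (adjusted p = 0.0271).

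Transfection with control siRNAs also moved 2 of the 8 genes, where 3.17% of all tested genes were called. HMGA2 was 1.21 ± 0.18 higher in siCTRL than in NT (adjusted p = 0.000224) and WDR1 0.87 ± 0.13 lower (adjusted p = 0.000226), with no overlap between the groups. WDR1 thus had its lowest level in siCTRL (115 ± 14.4 TPM) and 211 ± 17.5 TPM in NT, while siVPS37C had 199.8 ± 12.7 TPM. The order of its group means was siCTRL, siVPS37B, siVPS37A, siVPS37BC, siVPS37AB, siVPS37C, NT, siVPS37AC and siVPS37ABC, in which the libraries of neighbours from siVPS37B to siVPS37AC overlap. The 6 others were not called, with -0.46 ± 0.17 for PPP2R1B and 0.35 ± 0.19 for RRM2. With the library number term PPP2R1B had the same value and an adjusted p of 0.0374. The siCTRL libraries enter this comparison, that of siVPS37AB and the VPS37C difference itself, so these are not independent of each other. siCTRL, siVPS37AB and NT were among the groups without the VPS37C siRNA by which the genes were chosen. Neither comparison with siCTRL is therefore independent of that choice.

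**Figure D4:**
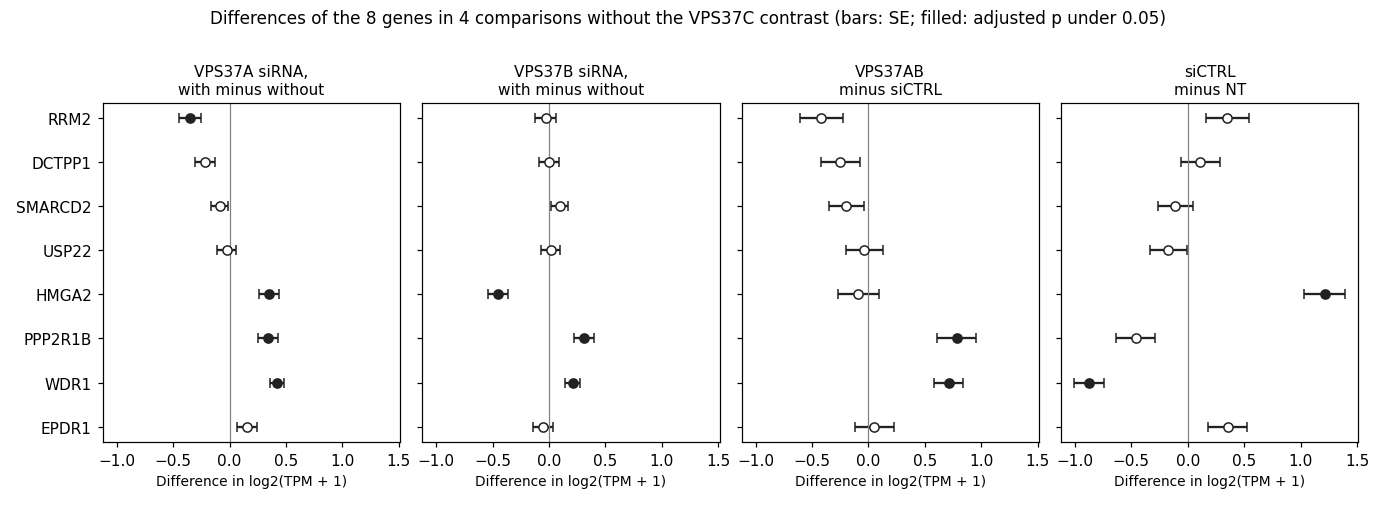
Difference in log2(TPM + 1) (horizontal axis, bars are SE) of the 8 genes (vertical axis) in 4 comparisons, with filled points for an adjusted p under 0.05. HMGA2 rises with the VPS37A siRNA and falls with the VPS37B siRNA, and the 4 genes SMARCD2, USP22, DCTPP1 and EPDR1 have open points throughout.

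The VPS37C difference of each gene did not pass a test for dependence on the other siRNAs. Whether it changed with the VPS37A siRNA gave estimates of -0.32 (HMGA2) to 0.24 (SMARCD2), with SEs of 0.13 to 0.19 and adjusted p of 0.859 or more. Whether it changed with the VPS37B siRNA gave -0.22 (WDR1) to 0.30 (HMGA2) with adjusted p of 1.0. By limma, 0 of all 6458 tested genes were called in either test (0% in both), and 372 and 139 had an unadjusted p under 0.05. The choice of genes with a steady difference favours small values here, and the SEs do not show that the differences are equal.

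Genes that work beside these 8 were read from lists, without the 8 genes and the 3 VPS37 genes. Of 17 tested genes of deoxynucleotide synthesis and removal, 2 fell with the VPS37C siRNA and 0 rose (median -0.03, against 0.01 for all tested genes). The 2 were the guanylate kinase GUK1 (-0.66 ± 0.11, adjusted p = 0.000128), which holds the hexamer in its 3′ UTR, and the nucleotidase NT5C (-0.28 ± 0.09, adjusted p = 0.0406). RRM1, the large subunit that pairs with RRM2, had 0.14 ± 0.09 (adjusted p = 0.346), and RRM2B, the subunit induced by p53, had -0.04 ± 0.11 (below the filter). Of 39 tested genes of DNA replication and S phase, 2 fell and 1 rose (median -0.01). They were GINS2 (-0.22 ± 0.06) and CDT1 (-0.23 ± 0.07), which fell, and GINS3 (0.26 ± 0.08), which rose. With the VPS37A siRNA 12 of the 39 fell and 0 rose, where 8.13% of all tested genes fell and 20.9% rose. With the VPS37B siRNA 6 fell and 0 rose, where 7.54% of all tested genes fell and 8.69% rose. The calls of NT5C and GINS2 were lost with the library number (adjusted p = 0.169 and 0.0923). Leaving out 1 library ended the call of NT5C in 15 of 27 cases, that of CDT1 in 11 and that of GINS3 in 7. With the replicate block the calls numbered 4 in the deoxynucleotide list and 10 in the replication list.

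None of the 16 tested SWI/SNF genes was called by limma with the VPS37C siRNA (median 0.04, 3 at an unadjusted p under 0.05), while 2 were called with the replicate block and 3 with the library number. SMARCD1, the paralog of SMARCD2, had 0.18 ± 0.08 (adjusted p = 0.153). Of 14 tested SAGA genes, 1 fell, the acetyltransferase KAT2B (-0.37 ± 0.08, adjusted p = 0.00177), and ATXN7L3 and ENY2, the partners of USP22 in its deubiquitinase module, had 0.10 ± 0.09 and -0.10 ± 0.06. Of 17 tested PP2A genes, 0 were called by limma (median 0.03, 0 at an unadjusted p under 0.05), also with the replicate block, and 1 was called without the filter on low values. PPP2R1A, the alpha isoform of the scaffold, had -0.03 ± 0.08.

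Among 12 tested let-7 target and oncofetal genes, 1 rose with the VPS37C siRNA, the GTPase NRAS (0.43 ± 0.08, adjusted p = 0.000667), and HMGA1, the paralog of HMGA2, had 0.09 ± 0.14 (adjusted p = 0.747). In this list 5 genes rose and 1 fell with the VPS37A siRNA (20.9 and 8.13% of all tested genes), and 3 fell and 0 rose with the VPS37B siRNA (7.54 and 8.69% of all tested genes). Of 23 tested genes of actin filament turnover, 3 rose and 1 fell with the VPS37C siRNA (median 0.04). The 3 most significant were the cofilin kinase LIMK1 (0.46 ± 0.10, adjusted p = 0.00295), the Arp2/3 subunit ARPC2 (0.22 ± 0.06, adjusted p = 0.0147) and the muscle cofilin CFL2 (0.35 ± 0.10, adjusted p = 0.0202), all higher, though ARPC2 was not called with the library number (adjusted p = 0.104). LIMK1 holds the hexamer in its 3′ UTR and was higher. With the replicate block the calls numbered 4 in the let-7 list and 7 in the actin list, and 2 among SAGA genes. CFL1, the main cofilin, had 0.05 ± 0.07, and DSTN had -0.07 ± 0.07. Of 6 tested ESCRT-I genes and partners, 1 fell, the ESCRT-I subunit VPS28 (-0.53 ± 0.10, adjusted p = 0.000550), which holds the hexamer in its 3′ UTR. Of 6 tested genes of the siRNA and microRNA machinery, 0 were called by limma (0 at an unadjusted p under 0.05), and 2 were called without the filter on low values.

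The genes most like the mean profile of the 8, each standardized over the 27 libraries, were CLCC1 (r = 0.923), ARL6IP6 (r = 0.914), AAGAB (r = 0.910), NRARP (r = 0.878) and RNF103 (r = 0.870). The signs of the raised genes were not turned, so raised and lowered genes partly offset each other in this mean. RRM2 alone was most like VPS37C (r = 0.887), NRARP (r = 0.875), AAGAB (r = 0.859), CLCC1 (r = 0.858) and ARL6IP6 (r = 0.827). These values describe the groups, since all libraries share the 9 treatments, and all named genes were lower with the VPS37C siRNA. NRARP, at -1.24 ± 0.11, fell more than RRM2 (-1.19) and does not hold the hexamer. AAGAB holds it in the 3′ UTR, and CLCC1, ARL6IP6 and RNF103 hold it elsewhere. Among the 8, RRM2 correlated with USP22 at 0.854 and EPDR1 at 0.853, and PPP2R1B with WDR1 at 0.817. HMGA2 and WDR1, both higher, correlated at only 0.308.

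Outside the set, the largest falls with the VPS37C siRNA among called genes of 50 TPM or more on average were those of LCN2 (-0.70 ± 0.16), IDH2 (-0.68 ± 0.15), GUK1, PDCD4 (-0.64 ± 0.09) and HIST1H2BM (-0.63 ± 0.11). The largest rises were those of RCC2 (0.82 ± 0.11), RPL34 (0.59 ± 0.16), SLC16A3 (0.58 ± 0.12), PDCD6 (0.55 ± 0.07) and INSIG1 (0.55 ± 0.12). Mean levels with the siRNA and in NT were 242 and 258 TPM for RCC2, 132 and 232 for PDCD6 and 89.1 and 84.6 for RPL34. They were 92.9 and 47.2 TPM for SLC16A3 and 142 and 98.1 TPM for INSIG1. HIST1H2BM had 98.3 TPM with the siRNA, 157 in the other transfected libraries and 474 in NT. The other genes that fell also had lower means with the siRNA than in NT. None of the 5 risen genes holds the hexamer, which 80.2% of the tested genes outside the set also lack. Among the falls, GUK1 holds it in the 3′ UTR and PDCD4 only in the 5′ UTR or coding sequence. LCN2, IDH2 and HIST1H2BM do not hold it.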

How the data were processed

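Per the labels' protocols, libraries were made with the Ion AmpliSeq human transcriptome panel. HTSeq 0.6.0, DESeq2 1.18.1 and hg19 appear in the submitters' processing notes, with no role given. The table deposited by the authors as normalized counts sums to 1000000 in each column and was read as TPM. Among values under 5 TPM, 1.56 to 3.67% were tied within a library, so whole reads were not recovered and the depth is unknown. Lines without an identifier (2157) were left out.

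The scale log2(TPM + 1), on which changes of low genes are understated, was used with limma 3.58.1 in R 4.3.3 (9 group means, 18 residual degrees of freedom, variance trend, Benjamini-Hochberg adjustment within a comparison over 6458 genes, threshold 0.05). The labels give each replicate number as a batch, so numbers pair the libraries. Residuals correlated at a mean r of 0.355 for equal and -0.175 for different numbers, and a model with the replicate block was an alternative. Models were tested on simulated data.

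The members and lists were chosen with earlier results of these data known. Named were the members, the VPS37 genes, paralogs and partners, up to 3 called genes a list with the smallest p, the 5 most like genes, and the 5 largest changes each way. Sequences came from GENCODE v29 (longest coding transcript, 10396 of 10470 genes matched), with Python 3.11.15.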

Additional observations from a re-analysis of the deposited data

How the results depend on the processing

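Depth is unknown, so no limit of detection can be given. The VPS37C difference of the 8 genes kept its sign in every alternative run, which the choice of genes largely fixes. The count of called genes was 681 for the VPS37C siRNA, 1877 for VPS37A, 1048 for VPS37B, 956 for siVPS37AB against siCTRL and 205 for siCTRL against NT. With the replicate block it was 1345 for the VPS37C siRNA, 1858 for VPS37B, 1652 for siVPS37AB and 572 for siCTRL against NT, and the block added calls for DCTPP1 (VPS37A) and RRM2 (siVPS37AB) and changed no other call of the 8 genes. With the library number it was 1389 for VPS37C and 657 for siCTRL against NT. Without the filter it was 1064 (VPS37C), 1588 (VPS37B), 1466 (siVPS37AB) and 317 (siCTRL against NT), and at a mean of at least 50 TPM 233, 453, 379 and 65, with 734 for VPS37A, as fewer genes were tested. Leaving out 1 library at a time gave 591 to 1045 calls for siVPS37AB and 100 to 240 for siCTRL against NT, and 0 to 1 for dependence of the VPS37C difference on the VPS37A siRNA. At 50 TPM, 6 genes in place of 14 had separate libraries. GGCGATT had -0.0897 and rank 2 in whole transcripts, and kept -0.138 but rank 3 when heptamers in 20 genes were admitted. At 100 genes, a choice made like the 20 after the data were seen, AGGCGAT led.

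Signs turned only for values near 0 that were not called, and the cause was not tested. With the library number, USP22 had 0.0528 (VPS37A) and 0.0837 (siVPS37AB), RRM2 0.0799, DCTPP1 -0.0936 and EPDR1 0.0946 (VPS37B), HMGA2 0.166 (siVPS37AB) and HMGA1 -0.0948 (VPS37C). With quantile normalization DCTPP1 had -0.0025 (VPS37B) and EPDR1 -0.0188 (siVPS37AB). Over the omissions of 1 library, the VPS37B values ran from -0.0444 to 0.0560 for DCTPP1, -0.0227 to 0.0573 for USP22 and -0.0821 to 0.0199 for RRM2. USP22 ran from -0.0637 to 0.0179 for VPS37A. The siVPS37AB values ran from -0.144 to 0.0347 for USP22, -0.199 to 0.0025 for HMGA2 and -0.0402 to 0.144 for EPDR1. DCTPP1 ran from -0.0089 to 0.216 for siCTRL against NT, and PPP2R1A from -0.0535 to 0.0144 for VPS37C.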

Other observations

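The 3 highest heptamers with the VPS37C siRNA were GACGTAA (0.12 over 56 genes), GACGTAC (0.09 over 52 genes) and GTATCGA (0.08 over 51 genes). GACGTAA also stood high with the VPS37B siRNA (0.07, rank 3 of 15678 from the highest) and the VPS37A siRNA (0.04, rank 198). It ranked highest in siVPS37C minus siCTRL (0.12), siVPS37AC minus siVPS37A (0.13) and siVPS37ABC minus siVPS37AB (0.19). In siVPS37BC minus siVPS37B it ranked 452 (0.04). Its choice by the mean of these matched differences largely fixes high places in them. GACGTAC had 0.07 with the VPS37A siRNA (rank 34) and 0.04 with the VPS37B siRNA (rank 129), and GTATCGA had -0.01 and -0.02. In siCTRL minus NT, GACGTAC (-0.25), TGACGTA (-0.22 over 86 genes) and GACGTAA (-0.21) were the 3 lowest. Of the control siRNAs whose sequences the labels give, the antisense strand of Negative Control No. 4 would pair through bases 2 to 8 with TGTCACG, which had -0.06 in siCTRL minus NT and 0.04 with the VPS37C siRNA (165 genes), and that of Negative Control No. 3 with TATCGTA, which had -0.05 and 0.02 (78 genes). In siCTRL minus NT, TGTCACG ranked 219 and TATCGTA 240 from the lowest. The sense strand of Negative Control No. 4 would pair with TCGGAGA (114 genes). That heptamer had -0.0052 in siCTRL minus NT (rank 5595) and -0.0013 with the VPS37C siRNA. The sense strand of Negative Control No. 3 would pair with CGGTCGT, which was not among the ranked heptamers. Which control siRNAs siCTRL holds is not given in the sources used here.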
